A study of Mus musculus with 8 samples.

Results

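Binding of the glucocorticoid receptor (GR) was described at 10 genes of the JAK-STAT pathway in mouse liver: the inhibitors Socs2, Socs3 and Cish, the transcription factors Stat3, Stat5a, Stat5b and Bcl6, the cytokine receptor genes Lifr and Il6ra, and the kinase gene Jak2. The genes were chosen by name, and their sites were all GR sites centred within 50 kb of an annotated gene start (mm10 coordinates, GENCODE release M21). A site is the union of overlapping peak regions from 6 GR libraries. This gave 109 distinct sites of 51431 in all, and 38327 of the 51431 lay within 50 kb of the start of any of 21911 protein-coding genes. Stat5a and Stat5b lie next to each other and shared all 25 of their sites, 2 of which also lay within 50 kb of the Stat3 start. The nearest protein-coding gene start was that of one of the 10 genes at 92 of the 109 sites.

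GR was mapped by chromatin immunoprecipitation with sequencing (ChIP-seq) in snap-frozen livers of male C57BL/6J mice on regular chow, collected at lights-off, with 2 libraries for each of 3 groups. Control mice (ctrl.) had free access to food and were then fed in the night only for the last week. Calorically restricted mice (cal. res.) were brought to a reduced ration over several weeks and were fed at lights-off. The third group (CORT) was fed in the night like ctrl. and was injected daily with corticosterone, the main glucocorticoid of mice, for a week; the label of the ctrl. libraries names no vehicle injection. The labels give no age, and the protocols differed in length. All groups carried the wild-type C57BL/6J genotype. A FOXO1 peak list came from 2 cal. res. libraries that the authors merged, so it has no replicate spread. Whole liver holds several cell types, and a change in their shares and a change in binding per cell cannot be told apart in these lists.

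Cytokine receptors such as the IL-6 receptor, the LIF receptor and the growth hormone receptor signal through JAK kinases, which phosphorylate STAT proteins; phosphorylated STAT dimers enter the nucleus and bind paired TTC and GAA elements. In the liver STAT5 carries growth hormone signals and STAT3 carries the acute-phase signal of IL-6. Socs2, Socs3 and Cish are classical STAT target genes whose products damp the receptors and kinases upstream, and Bcl6 is a repressor that can occupy STAT elements. GR is a ligand-activated transcription factor that binds its own palindromic elements and is also known to meet STAT5 on chromatin of hepatocytes.

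The STAT element, given here as TTCNNNGAA, reads the same on both strands. It was searched in the 200 bp around the strongest summit of each site (a summit is the position of highest signal in a peak). At the 27 sites of these genes with a peak in all 6 libraries, it was the motif found most often of those searched. It was in 11 of the 27, and the GR hexamer AGAACA was in 7. This order did not hold more widely. Over all 109 sites the hexamer was in 23 and the STAT element in 20. Among all sites near a protein-coding start with a peak in all 6 libraries, the hexamer was in 18.4% and the STAT element in 8.31%. Adjacent pairs of STAT elements stood at the starts of Socs2 and Cish. These are shown because both sites had a peak in all 6 libraries and overlapped FOXO1, with the elements in capitals and read from the plus strand of GRCm38, the assembly that mm10 names.
Socs2 start, chr10:95416904-95416923: TTCCAGGAActTTCCAGGAA
Cish start, first pair, chr9:107296659-107296678: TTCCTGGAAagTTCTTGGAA
Cish start, second pair, chr9:107296764-107296789: TTCTAGGAAgatgaggcTTCCGGGAA

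At Socs3 and Bcl6 the element stood under the summits of the leading sites, and at Stat5a and Stat5b the leading site held the centre of a GR element, ACANNNTGT. The leading site of a gene is the one with the highest mean percentile over the 6 libraries. The 200 bp around those 3 summits follow, on the plus strand, with STAT elements in capitals at Socs3 and Bcl6 and the GR element centre in capitals at Stat5a and Stat5b.
Socs3, chr11:117962237-117962436: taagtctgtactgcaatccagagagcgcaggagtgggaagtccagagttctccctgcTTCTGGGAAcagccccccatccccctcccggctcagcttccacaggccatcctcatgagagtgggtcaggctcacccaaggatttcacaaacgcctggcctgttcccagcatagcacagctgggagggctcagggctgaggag
Bcl6, chr16:23981295-23981494: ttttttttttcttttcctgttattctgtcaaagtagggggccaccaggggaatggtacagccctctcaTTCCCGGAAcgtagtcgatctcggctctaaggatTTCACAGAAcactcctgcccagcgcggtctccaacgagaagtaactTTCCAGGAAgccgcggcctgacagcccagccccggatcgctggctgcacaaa
Stat5a and Stat5b, chr11:100828974-100829173: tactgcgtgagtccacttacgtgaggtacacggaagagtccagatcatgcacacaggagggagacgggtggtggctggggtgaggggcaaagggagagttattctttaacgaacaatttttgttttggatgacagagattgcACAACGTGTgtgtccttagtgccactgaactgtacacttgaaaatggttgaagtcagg

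The STAT element was in 20 of the 109 sites (18.3%), against 7.51% of all GR sites within 50 kb of a protein-coding start. Most of the 20 sites lay at Socs2, Socs3, Cish and Bcl6. A few lay at Stat5a and Stat5b, Lifr and Il6ra, and none at Stat3 or Jak2. Among the 27 sites of the 10 genes with a peak in all 6 libraries it was in 11, against 8.31% of all such sites near a start. The centre of the GR element was in 13 sites (11.9%, background 8.05%), and 3 of the 27 sites held it. The GR hexamer AGAACA, or TGTTCT on the other strand, which can overlap the element centre, was in 23 sites (21.1%, background 17.1%). The forkhead string TGTTTAC, in either strand, was in 3 sites (2.75%, background 4.56%). With a window of 100 bp the STAT element was in 13 of the 109 sites, against 4.15% of the background. RefSeq promoters of GRCm38.p6, 250 bases before to 50 after a start, were matched for 9 of the 10 genes, all but Socs2, and the element was in both promoters of Bcl6 and in the single promoters of Cish and Socs3. It was not in these letters in the promoters of Il6ra, Jak2, Lifr, Stat3, Stat5a and Stat5b, and it was in 8.3% of 32851 promoters. Matches are letters in a window and do not show that a factor was bound.

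**Figure D1:**
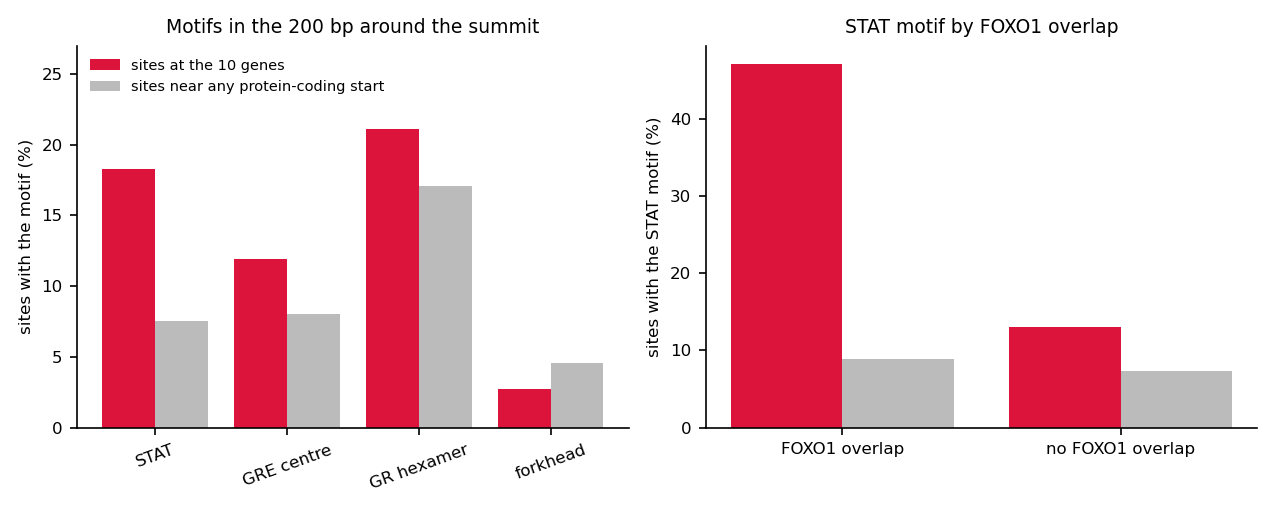
Share of GR sites, in percent, with each motif in the 200 bp around the strongest summit (left), and share with the STAT element split by overlap with a FOXO1 peak (right); red bars are the 109 sites at the 10 genes and grey bars all 38327 sites within 50 kb of a protein-coding start. The STAT bars are 18.3% against 7.51%, and among sites that overlap FOXO1 47.1% against 8.93%. FOXO1 overlap was counted over the whole site, not over the summit window alone.

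Each of the 10 genes had at least 1 site held by ctrl., at least 1 held by cal. res. and at least 1 held by CORT, where a group holds a site when both of its libraries have a peak there. Of all protein-coding genes, 48.5%, 47.2% and 60.9% had such a site in ctrl., cal. res. and CORT. A site held by all 3 groups was present at 9 of the 10 genes, all but Jak2 (37.9% of all genes). The median was 11 sites per gene, against 3 over all protein-coding genes. Stat5a and Stat5b, with 25 sites each, had more sites than 99.6% of the genes. Il6ra with 21 had more than 99.1% of them, and Jak2 with 5 more than 62.9%. Of the 25 sites at Stat5a and Stat5b, 12 had a peak in a single library. Only 2 were held by all 3 groups, more than at 81.1% of the genes. Of the 21 at Il6ra, 11 had a peak in a single library and 7 were held by all 3 groups, more than at 99.5%.

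The 6 lists differed in length, from 12458 distinct regions in ctrl. replicate 2 to 39136 in CORT replicate 2, and counts of sites moved with it. Sites of the 10 genes with a peak numbered 61 and 32 in the ctrl. libraries, 42 and 39 for cal. res. and 62 and 91 for CORT. Of the 45 sites with a peak in a single library, 30 came from CORT replicate 2. The library names follow 2 styles, which the labels do not call a batch: ctrl. replicate 2 and both cal. res. libraries share one, and ctrl. replicate 1 and both CORT libraries the other. A difference between cal. res. and CORT therefore cannot be told apart from one between name styles. Read totals were not analysed here, so peaks that are missing from a list may be below its detection limit.

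Both ctrl. libraries had a peak at 32 of the 109 sites (29.4%, background 23.3%), both of cal. res. at 34 (31.2%, background 28.1%) and both of CORT at 52 (47.7%, background 45.4%). All 3 groups held 27 (24.8%, background 16.7%), and no group held 56 (51.4%, background 50.1%). Cal. res. held 6 sites that ctrl. did not (5.5%, background 10.7%), and 5 of the 6 had a peak in ctrl. replicate 1. CORT held 21 sites that ctrl. did not (19.3%, background 24.5%), of which 13 had a peak in ctrl. replicate 1 and 8 in neither ctrl. library. When every list was reduced to its 12458 strongest regions, ctrl. and cal. res. held 25 sites each and CORT 23, and CORT held 3 that ctrl. did not. Without ctrl. replicate 2, 8 sites were held by CORT and not by ctrl., and without CORT replicate 1, 60. Exact permutation tests of the number of peak regions per gene, two-sided over 30 combinations of gene and comparison, gave no p below 0.333, the smallest that 2 libraries against 2 allow, and all adjusted p were 1.

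**Figure D2:**
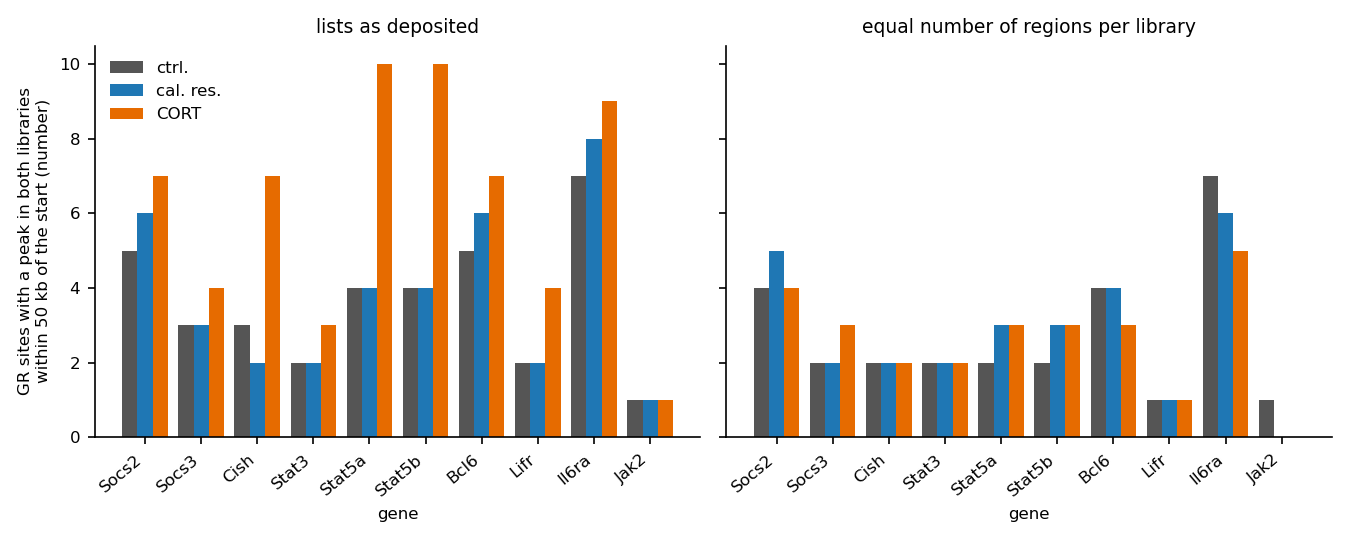
Number of GR sites within 50 kb of each gene start that had a peak in both libraries of ctrl. (grey), cal. res. (blue) or CORT (orange), with the lists as deposited (left) and with 12458 regions per library (right). Stat5a and Stat5b show the same sites; their 10 CORT sites become 3 when the lists have equal length, as many as in cal. res.

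Because fold enrichment, the height of a peak over its local background, is scaled within each list, sites were compared by their percentile, the share of the regions of a list with a fold enrichment at or below theirs. A percentile depends on which regions its list holds, and the lists differed in length. Ranked only among sites with a peak in all 6 libraries, the leading sites had lower median percentiles over libraries. The smallest drop was at Il6ra, from 99.2 to 97.4, and the largest at Bcl6, from 79.6 to 56.7. The leading Jak2 site could not be ranked in this way. Sites of the 10 genes ranked high in most lists. Their median percentile was 66.6 and 71.5 in the ctrl. libraries, 68.2 and 64.4 in cal. res., 58.9 in CORT replicate 1 and 52.4 in CORT replicate 2, against medians from 49.2 to 51.7 over all sites near a protein-coding start in the same lists. The 91 sites in CORT replicate 2 included the 30 seen in no other library.

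**Figure D3:**
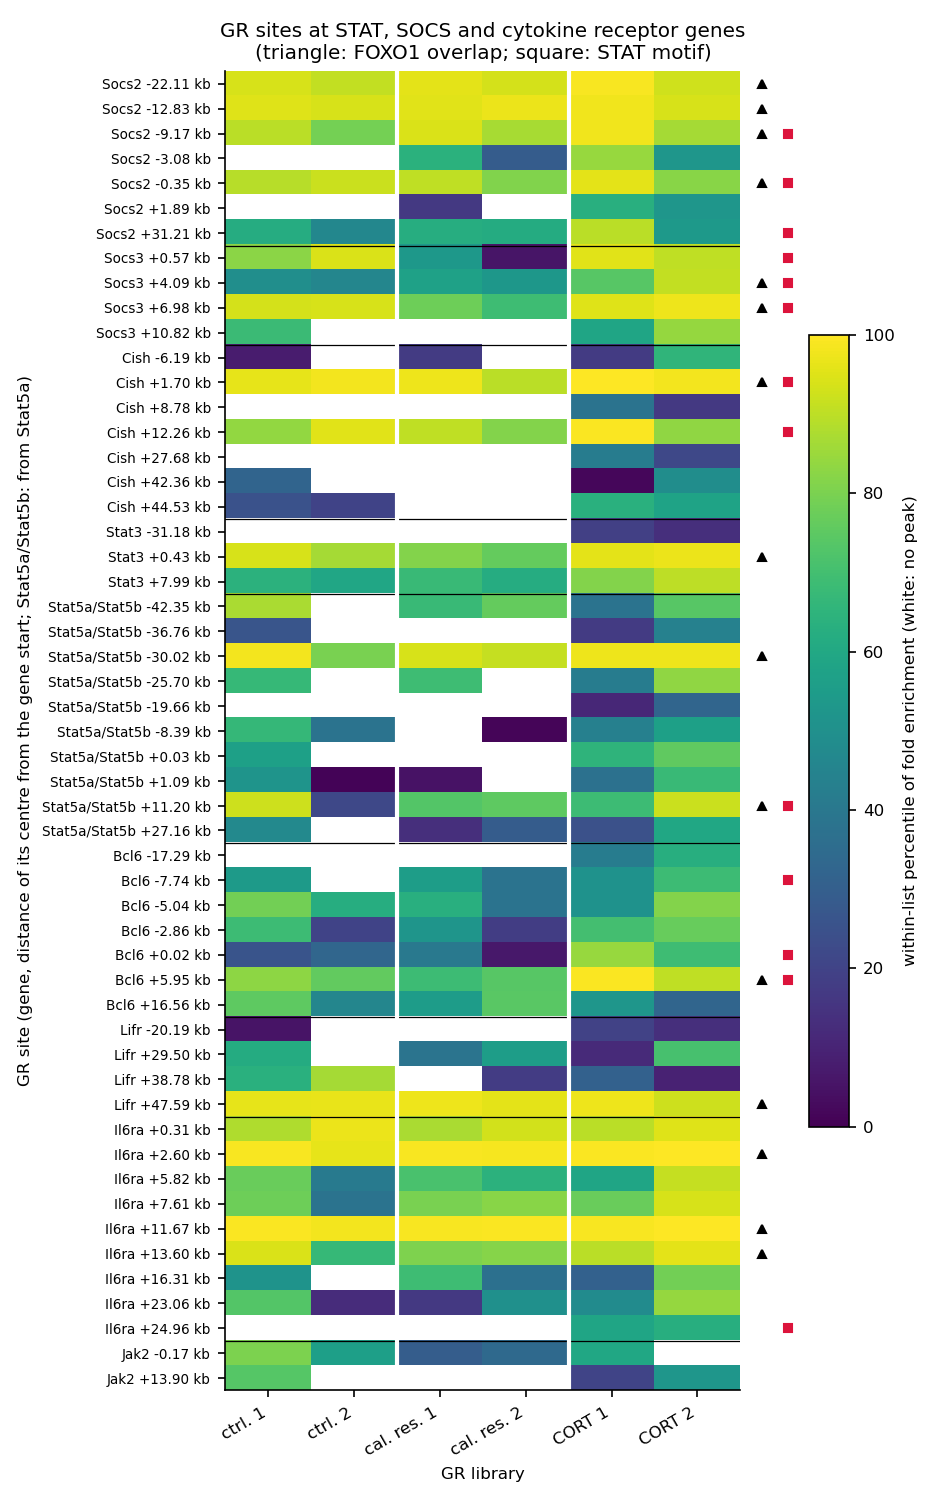
Within-list percentile of fold enrichment (colour, 0 to 100; white, no peak) of every site held by at least 1 group, by gene and distance from its start in kb (rows) and GR library (columns); for Stat5a/Stat5b the distance is from the Stat5a start. Triangles mark FOXO1 overlap and squares the STAT element; the FOXO1 sites at Socs2, Cish, Lifr and Il6ra are in the upper part of the scale in all 6 columns, while the Socs3 site at 0.57 kb is dark in cal. res. replicate 2.

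Socs2, whose product restrains growth hormone receptor signalling, had 12 sites, 5 of them held by all 3 groups, and 4 FOXO1 peak regions, more than any other of the 10 genes. Its leading site lay 12.83 kb upstream in intergenic sequence (chr10:95429033-95430984). The percentile there was at 95.0 and 94.1 in ctrl., at 95.5 and 97.0 in cal. res. and at 97.8 and 93.9 in CORT. In these list percentiles both cal. res. libraries were above both ctrl. libraries, and CORT overlapped the other groups. Ranked only among sites with a peak in all 6 libraries, ctrl. was at 79.0 and 91.4 and cal. res. at 88.2 and 93.3, with overlap. The FOXO1 region inside it had a fold enrichment of 13.5, at percentile 94.1 of the FOXO1 list. A neighbouring site 9.17 kb upstream, in an intron of 5730420D15Rik, held a STAT element and the FOXO1 region with the highest percentile of those at the 10 genes, 97.9. The start site of Socs2, with the printed pair of STAT elements, stood at 89.3 and 92.1 in ctrl., at 90.5 and 80.9 in cal. res. and at 95.8 and 82.3 in CORT. All groups overlapped there too.

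A Socs2 site 3.08 kb upstream (chr10:95419771-95420752) had no peak in ctrl. and was the only site of the 10 genes gained in cal. res. that had no ctrl. peak. Its percentile was 63.9 and 29.0 in the cal. res. libraries, and CORT stood at 84.6 and 52.4. A site 1.89 kb downstream of the start, with the GR element centre and a forkhead string, had no ctrl. peak either and stood at 63.0 and 52.4 in CORT and at 16.4 in cal. res. replicate 1 alone.

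Socs3, the feedback inhibitor of IL-6 signalling through STAT3, had 9 sites, and 3 were held by all groups, each with a STAT element. Its promoter site (chr11:117968430-117970531) stood at 82.5 and 94.5 in the ctrl. libraries, at 53.5 and 5.57 in cal. res. and at 95.7 and 90.4 in CORT. Both cal. res. libraries were below all 4 others. The leading Socs3 site, 6.98 kb downstream of the start and past the end of the gene, stood at 93.5 and 94.1 in ctrl., at 78.0 and 69.1 in cal. res. and at 95.0 and 97.4 in CORT, again with cal. res. below all others. It overlapped a FOXO1 region at percentile 78.1 of that list, which lay outside the printed summit window. Between these lay a FOXO1 site 4.09 kb downstream with another order, at 49.5 and 45.8 in ctrl., at 57.4 and 53.0 in cal. res. and at 74.2 and 90.9 in CORT. Within one name style, ctrl. replicate 2 at 94.5 stood above cal. res. at the Socs3 promoter, and within the other ctrl. replicate 1 at 82.5 stood below CORT.

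In normalized log2 fold enrichment (quantile normalized over the 8097 sites with a peak in all 6 libraries), the Socs3 promoter site was at 3.02 and 4.48 in ctrl., at 2.68 and 1.84 in cal. res. and at 4.13 and 3.39 in CORT. The difference of cal. res. from ctrl. was -1.49 (SE 0.49, limma adjusted p = 0.375), and that of CORT from cal. res. was 1.50 (SE 0.49, limma adjusted p = 0.168). Neither passed the threshold of 0.05 after adjustment over all 8097 sites. The second of them passed with median centring in place of quantile normalization (limma adjusted p = 0.048) and without ctrl. replicate 2 (adjusted p = 0.042). At the leading Socs3 site the same differences were -0.89 (SE 0.35, limma adjusted p = 0.447) and 0.97 (SE 0.35, adjusted p = 0.209).

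Cish, a STAT5 target whose product binds phosphorylated cytokine receptors, had 9 sites. The site at its start (chr9:107295616-107299837) held all 4 printed STAT elements in the 5' part of the gene, which overlaps an annotated Cish UTR, and a FOXO1 region at percentile 71.3. It stood at 96.2 and 98.3 in ctrl., at 97.3 and 89.6 in cal. res. and at 99.9 and 98.2 in CORT. Fold enrichment there was at 19.8 and 16.7 in ctrl., at 26.9 and 11.4 in cal. res. and at 95.8 and 33.6 in CORT. The normalized log2 difference of CORT from cal. res. was 1.28 (SE 0.56, limma adjusted p = 0.287). A second site 12.26 kb downstream, also with a STAT element, stood between 81.4 and 99.2 in all 6 libraries.

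CORT held 7 Cish sites, ctrl. 3 and cal. res. 2. Sites 8.78 kb and 27.68 kb downstream had peaks in both CORT libraries and in no other, at percentiles of 38.2 and 16.7 and of 42.2 and 21.9, and the second is nearest to the start of Hemk1. A site 44.53 kb downstream, at the promoter of 6430571L13Rik, stood at 25.03 and 19.97 in ctrl. and 63.6 and 57.9 in CORT and had no peak in cal. res. With lists of equal length each group held 2 Cish sites.

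Stat3, which encodes the transcription factor of the acute-phase response, had 12 sites, of which 8 were seen in a single library. Its promoter site (chr11:100937998-100940222) overlapped a FOXO1 region that lay outside the summit window. That window held a GR hexamer and no STAT element. The promoter site stood at 93.9 and 86.5 in ctrl., at 81.4 and 76.2 in cal. res. and at 95.7 and 96.9 in CORT. Cal. res. lay below ctrl. and ctrl. below CORT, with no overlap. On the normalized log2 scale CORT differed from cal. res. by 0.82 (SE 0.32, limma adjusted p = 0.238) and cal. res. from ctrl. by -0.52 (SE 0.32, adjusted p = 0.587). An intronic site 7.99 kb downstream stood at 64.2 and 59.3 in ctrl., at 67.9 and 62.1 in cal. res. and at 81.6 and 90.0 in CORT. A site 31.18 kb upstream had peaks in both CORT libraries alone, at 19.0 and 13.3, and lies at the promoter of Cavin1.

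At Stat5a and Stat5b, which encode the growth hormone-responsive STATs, the leading site lay in an intron of Stat5b (chr11:100828344-100830311), 21.4 kb downstream of the Stat5b start and 30.02 kb upstream of the Stat5a start. It carried the printed GR element centre and a FOXO1 region at percentile 82.6. Its percentile was at 98.2 and 79.8 in ctrl., at 93.8 and 91.4 in cal. res. and at 97.5 and 97.3 in CORT, so both CORT libraries were above both cal. res. libraries while the ctrl. libraries were on either side. The second site with a peak in all 6 libraries, in an intron of Stat5a 11.2 kb from its start, held a STAT element and FOXO1 and ranged from 21.7 in ctrl. replicate 2 to 92.4 in ctrl. replicate 1. The Stat5b promoter site stood at 66.6 and 38.0 in ctrl. and 43.6 and 56.8 in CORT, and at 1.55 in cal. res. replicate 2 with no peak in replicate 1. The Stat5a promoter site at 0.03 kb had peaks at 65.1 and 75.4 in CORT and 56.9 in ctrl. replicate 1, and none in the other 3 libraries. An intronic Stat5b site 19.66 kb upstream of Stat5a had peaks in both CORT libraries alone, at 11.2 and 32.8.

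Bcl6 had 10 sites, 5 held by all groups. Its leading site in the first part of the gene (chr16:23979174-23986627) was wide, so values of different libraries can come from different peak regions within it. The printed summit window with 3 STAT elements lay apart from the FOXO1 region, whose centre was 3.38 kb from the start. Gm37419 had the nearest protein-coding start for this site and for the intronic site at 16.56 kb. The leading site stood at 83.2 and 76.0 in ctrl., at 68.6 and 73.9 in cal. res. and at 99.4 and 90.4 in CORT. In these list percentiles all 3 groups were separate, with CORT highest. Ranked only among sites with a peak in all 6 libraries, the groups overlapped. The site was then at 43.8 and 67.0 in ctrl., at 39.6 and 53.1 in cal. res. and at 97.9 and 60.3 in CORT. Fold enrichment was 46.4 in CORT replicate 1 and 15.1 in CORT replicate 2, and 5.94 to 10.5 in the others. The normalized log2 difference of CORT from cal. res. was 1.26 (SE 0.52, limma adjusted p = 0.254). The Bcl6 promoter site, with a STAT element, stood at 26.0 and 33.0 in ctrl., at 40.3 and 6.34 in cal. res. and at 84.7 and 69.1 in CORT. An intronic site at 16.56 kb went the other way, with CORT (52.6 and 32.5) below cal. res. (55.2 and 74.4) and a log2 difference of -0.85 (SE 0.35, limma adjusted p = 0.252). A site 17.29 kb upstream, with a GR element centre and 2 GR hexamers, had peaks in both CORT libraries alone, at 42.2 and 62.6.

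Il6ra, which encodes the ligand-binding chain of the IL-6 receptor, had 7 sites held by all groups, the largest number among the 10 genes and more than at 99.5% of protein-coding genes. Its leading site, in an intron 11.67 kb from the start (chr3:89900518-89902531), stood at 99.4 and 98.2 in ctrl., at 99.0 and 99.4 in cal. res. and at 99.0 and 99.7 in CORT. An intronic site at 2.6 kb was between 96.2 and 99.6 in all libraries. Both overlapped FOXO1 regions, at percentiles 91.9 and 87.8, and neither held a STAT element. The log2 difference of cal. res. from ctrl. was 0.16 (SE 0.28, limma adjusted p = 0.879) at the first and 0.26 (SE 0.27, adjusted p = 0.769) at the second, and that of CORT from ctrl. was 0.08 (SE 0.28, adjusted p = 0.927) and 0.46 (SE 0.27, adjusted p = 0.512). The promoter site stood between 87.4 and 97.1 and the groups overlapped. A site at 7.61 kb was higher in cal. res., 80.0 and 82.1, than in ctrl., 77.8 and 38.0. A STAT element was in an Il6ra site at 24.96 kb with peaks in both CORT libraries alone, at 58.9 and 62.6.

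Lifr, the receptor chain for LIF, had 8 sites and 1 held by all groups, an intronic site 47.59 kb from its start (chr15:7137438-7138961) that overlapped FOXO1. It was at 96.4 and 96.8 in ctrl., at 97.4 and 95.8 in cal. res. and at 97.5 and 92.4 in CORT. A second annotated Lifr promoter, at 38.78 kb, stood at 63.3 and 86.4 in ctrl., 17.9 in cal. res. replicate 2 alone, and 31.2 and 9.42 in CORT, and was the single site of the 10 genes where CORT was below ctrl. without overlap. A site 1.71 kb upstream of the Lifr start overlapped a strong FOXO1 region, at percentile 94.8, but had GR peaks in 1 library of each group only, at 69.7, 63.9 and 67.4.

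Jak2, the kinase bound to the growth hormone receptor, had 5 sites, no FOXO1 region and none held by all groups. Its promoter site (chr19:29251113-29252209) was the leading one, at 80.2 and 56.5 in ctrl., at 29.4 and 34.3 in cal. res., and 59.6 in CORT replicate 1, with no peak in CORT replicate 2. Cal. res. was below ctrl. at this site. With lists of equal length it was held by ctrl. alone.

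**Figure D4:**
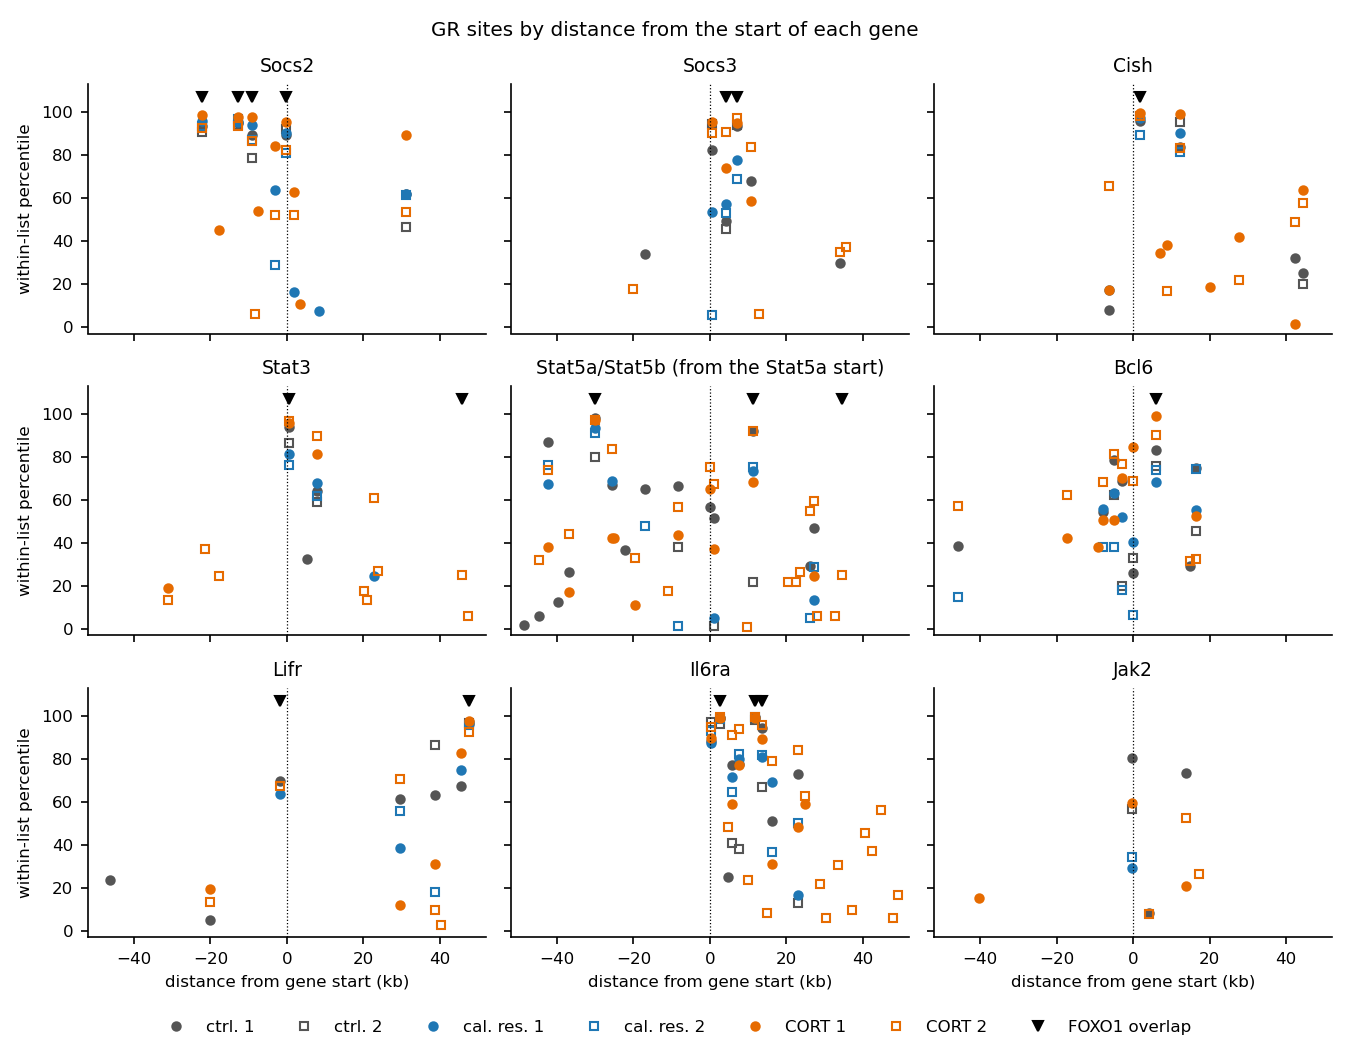
Within-list percentile of each GR site against the distance of its centre from the gene start in kb, for each gene; filled circles are replicate 1 and open squares replicate 2 of ctrl. (grey), cal. res. (blue) and CORT (orange), and triangles at the top mark sites that overlap a FOXO1 peak. Il6ra has its strongest sites within 11.67 kb downstream of the start, Socs2 has FOXO1 sites up to 22.11 kb upstream, and Jak2 has no FOXO1 mark.

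A FOXO1 peak overlapped 17 of the 109 sites (15.6%, background 13.5%), and 9 of the 10 genes had such a site (31.2% of all genes). Of the 17, 15 had a peak in all 6 GR libraries. Among sites with a peak in all 6 libraries FOXO1 overlapped 55.6% at the 10 genes and 47.9% near all protein-coding starts. The STAT element was in 8 of the 17 sites with FOXO1 (47.1%), against 8.93% of all FOXO1 sites near a start, and in 12 of the 92 without it (13%), against 7.29%. FOXO1 overlap was counted over the whole site and the element only around the GR summit, so they need not coincide. At the leading sites of Socs3 and Bcl6 the FOXO1 region lay outside the summit window that held the element. No forkhead string was found at any of the 27 sites of the 10 genes with a peak in all 6 libraries, and in 5.56% of all such sites.

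Sites whose percentiles did not overlap between groups were counted with no peak taken as 0, and their shares stood near those of all GR sites near a start. Cal. res. was below ctrl. at 8 sites (7.34%, background 8.33%) and above it at 4 (3.67%, background 4.29%). The 8 included the promoters of Socs3, Stat3, Stat5b and Jak2, a choice of names made after their values were seen. CORT was above ctrl. at 20 sites (18.3%, background 17.4%) and below it at 1 (0.917%, background 2%). CORT was above cal. res. at 29 sites (26.6%, background 28.7%) and below it at 1 (0.917%, background 2.76%).

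Of the 27 sites that could be tested, limma with Benjamini-Hochberg adjustment over 8097 sites called none in any comparison. It called 0 sites (0%) in all for cal. res. against ctrl., 16 (0.198%) for CORT against ctrl. and 9 (0.111%) for CORT against cal. res. At an unadjusted limma p under 0.05, 2 of the 27 passed in cal. res. against ctrl. (10% of all tested), 0 in CORT against ctrl. (12.5%) and 6 in CORT against cal. res. (16.5%). The 2 were the Socs3 promoter and leading sites, both lower in cal. res. The 6 were the same Socs3 sites, the Stat3 promoter, the Cish start and the Bcl6 sites at 5.95 kb and 16.56 kb, and the last was the one lower in CORT. The median log2 difference over the 27 sites was -0.05 for cal. res. against ctrl. (0.00 over all tested), 0.23 for CORT against ctrl. (-0.02) and 0.20 for CORT against cal. res. (-0.04). These tests reach only sites with a peak in all libraries and say nothing about gained or lost sites.

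Among the 27 sites, the 11 with a STAT element had a median log2 difference of CORT from cal. res. of 0.48, and the 16 without it 0.02. Over all tested sites near a protein-coding start the medians were 0.06 and 0.01. For cal. res. against ctrl. the medians were -0.19 with the element and 0.09 without it at the 10 genes, and -0.03 for both sets over all sites. For CORT against ctrl. they were 0.25 with the element and 0.20 without it at the 10 genes, and 0.08 and -0.01 over all sites. The log2 difference of CORT from ctrl. was above 0 at 10 of the 11 sites with the element and at 11 of the 16 without it, against 57% and 49.4% over all sites. For CORT from cal. res. it was above 0 at 7 of the 11 and 8 of the 16, against 54.3% and 50.5%, and for cal. res. from ctrl. at 4 of the 11 and 9 of the 16, against 46.6% and 47.1%. The sites with the element come from 5 loci and are not independent of each other, and no test was made of this split.

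**Figure D5:**
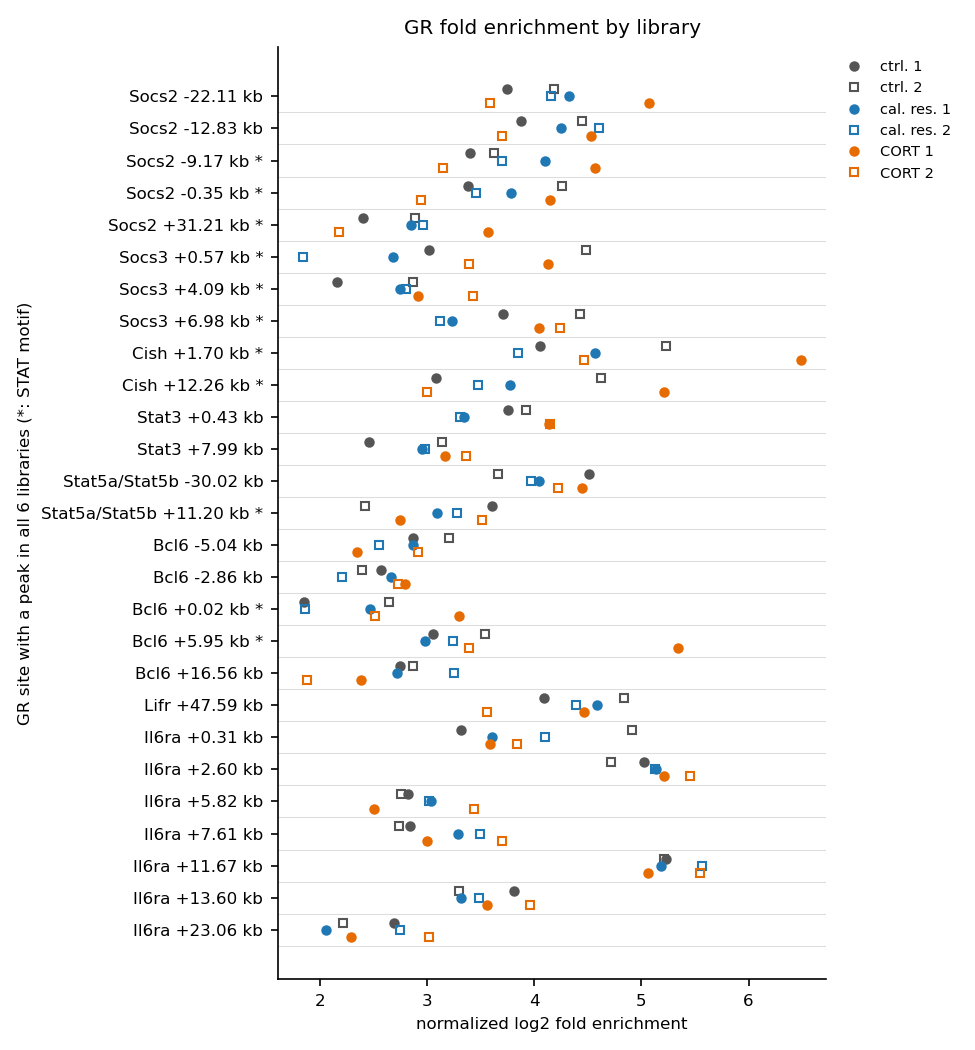
Normalized log2 fold enrichment in each GR library (symbols and colours as in the plot by distance) at the 27 sites with a peak in all 6 libraries; an asterisk marks the STAT element. At the Socs3 site at 0.57 kb the cal. res. libraries are at 2.68 and 1.84, below the other 4 libraries, while at the Il6ra site at 11.67 kb all 6 lie between 5.06 and 5.57.

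The other genes of the pathway, 30 in a list of receptors, kinases, STATs and inhibitors, had 219 distinct sites. Of these sites ctrl. held 24.7%, cal. res. 26.5%, CORT 42.9% and all 3 groups 17.8%, and 16% overlapped FOXO1. A site held by all 3 groups was present at 20 of the 30 genes: 9 of 12 receptors, 2 of 3 kinases, 3 of 4 STATs and 6 of 11 inhibitors. Limma called none of the 39 sites tested in either direction. Ghr, the growth hormone receptor gene, and Prlr, the prolactin receptor gene, each had 4 sites held by all groups, and Stat6, the factor of IL-4 signalling, had 5. Socs1, a JAK inhibitor, had 5 sites, of which CORT held 2 and the other groups 0, and Stat4 had 0.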

How the data were processed

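The material was 1 FOXO1 peak list and 6 GR ChIP-seq peak lists from mouse liver, 2 for each of ctrl., cal. res. and CORT. Groups follow the titles in the labels. The authors aligned paired-end reads to mm10 with BWA, discarded duplicate and ambiguous reads (Picard, Bamtools), called peaks with MACS2 in each GR library (largest q in a list 0.0994 to 0.0998) and in the merged FOXO1 libraries (9.84e-06), and removed blacklisted regions with bedtools. Use of an input control is not given in the sources used here. The deposited fold enrichment is a ratio over local background, and the significance the authors deposited is the -log10 p and -log10 q of the caller. The -log10 p of the FOXO1 list was not used. Read totals were not analysed here.

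Where rows repeated an interval, the summit of greatest fold enrichment was kept, and regions overlapping by at least 1 bp were merged into sites. Where a library had several regions in a site, its highest fold enrichment and percentile there were used. A promoter lies within 1 kb of an annotated start. Log2 fold enrichment at sites with a peak in all 6 libraries was quantile normalized and tested with limma 3.58.1, which was tested on simulated data first. Sequence came from GRCm38.p6 through pysam 0.24.0. Other tools were R 4.3.3, matplotlib 3.10.9, SciPy 1.17.1, pandas 2.3.3, NumPy 2.4.6 and Python 3.11.15.

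The 10 genes, the pathway list and the tests were chosen with earlier results of these data known. Described per gene were the site with the highest mean percentile, sites called by limma, and sites held by cal. res. or CORT with no ctrl. peak or by ctrl. alone. Further sites, among them promoters, sites with FOXO1 or STAT elements and sites whose groups did not overlap, were named after their values were seen. Alternatives were q of at most 0.01, an equal number of regions per library, a peak in either library, 50% overlap, windows of 25 and 100 kb, the nearest start, the stronger 50% of FOXO1 peaks, median centring, a peak in 5 of 6 libraries, -log10 p, the name style as a covariate, the replicate number as a block, and leaving out each library. For the percentiles of the leading sites, the alternatives were ranks by -log10 p and ranks among sites with a peak in all 6 libraries.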

Additional observations from a re-analysis of the deposited data

How the results depend on the processing

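With 2 libraries a group, list length and single libraries set most counts. An equal number of regions gave 46 sites, of which CORT held 23 and CORT but not ctrl. 3. With a peak in either library ctrl. held 61 of the 109 sites, CORT 101 and all groups 42, and CORT but not ctrl. 47. Sites held by cal. res. and not ctrl. numbered 3 of 75 within 25 kb and 13 of 156 within 100 kb. Within 100 kb cal. res. held 53, CORT but not ctrl. 32, and 26 overlapped FOXO1. Leaving out 1 library gave 32 to 61 sites for ctrl., 34 to 42 for cal. res., 52 to 91 for CORT, 27 to 32 for all groups, 1 to 13 for cal. res. but not ctrl., 8 to 60 for CORT but not ctrl., and 16 to 17 with FOXO1. The ends that moved most came from ctrl. replicate 2 (61 and 1 and 8), cal. res. replicate 2 (13) and CORT replicate 1 (91 and 60).

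Sites called by limma over the whole table were none or few in the main setting. Their number moved with the normalization, the choice of sites, the covariates and the library left out. Median centring called 22 for cal. res. against ctrl. and 315 for CORT against cal. res., the name style as a covariate 27 for CORT against ctrl. and 0 for CORT against cal. res., and the last comparison had 29 with a peak in 5 of 6 libraries and 20 with -log10 p. Leaving out 1 library gave 0 to 20 for cal. res. against ctrl., 0 to 59 for CORT against ctrl. and 0 to 385 for CORT against cal. res. With a replicate block the calls were 0, 11 and 2 in that order. Same-numbered libraries of ctrl. and cal. res. deviated with a correlation of -0.11, of ctrl. and CORT -0.14, and of cal. res. and CORT 0.13, so the numbers were not taken as pairs. At the 10 genes, 8 differences had an unadjusted limma p under 0.05 and were chosen after their values were seen. All 8 kept their direction in 11 alternatives, which reuse the data that picked them, so this is weak support. Their size was less stable. Without CORT replicate 1, the log2 difference of CORT from cal. res. fell from 1.28 to 0.27 at the Cish start. At the Bcl6 site at 5.95 kb it fell from 1.26 to 0.28. Both were larger without CORT replicate 2. The Socs3 promoter in CORT against cal. res. passed the threshold with median centring.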
